A study of Mus musculus with 7 samples.

Results

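The transcripts described here are the mRNAs of mouse zinc finger protein genes whose symbol is Zfp followed by digits only, with Zfp42 (Rex1, a marker of pluripotent cells) left out. There were 130 such genes among the 12030 gene symbols listed, and 271 of the 26827 listed transcripts carried their symbols. For each gene the transcript with the most RT stops per listed position over the DMS and CMCT libraries was taken. Of the 130 transcripts, 110 are annotated as protein coding, 11 as retained introns, 5 as processed transcripts without a coding region and 4 as targets of nonsense-mediated decay. They are 321 to 11875 nucleotides long, with a median of 2890.

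CIRS-seq probes RNA structure with reagents that modify unpaired bases, and reverse transcription stops next to a modified base. Lysates of E14 mouse ESCs, an embryonic stem cell line of strain 129/Ola, were digested with Proteinase K and then probed. The DMS samples (dimethyl sulfate, which modifies unpaired A and C) were pools of doses between 50 and 200 mM, and the CMCT samples (a carbodiimide, which modifies unpaired U and G) pools of doses between 10 and 50 mM. The NT samples got no reagent, and each of the 3 treatments had 2 replicates. One RNA-seq library of ribosomal RNA-depleted RNA of the same cells gave the abundance. The buffer differed between the reagents, a Hepes buffer for DMS and a borate buffer for CMCT, and NT was a pool of the untreated aliquots of both, so reagent and buffer cannot be told apart. The 6 CIRS-seq libraries held 181944556 to 338201940 counted RT stops over all transcripts. In the RNA-seq library, the 10 ESC markers lay between 119 (Utf1) and 7032 (Dppa5a) alignments per kb, the 5 fibroblast feeder markers between 0 (Postn) and 7.49 (Thy1), and the 6 markers of differentiated derivatives between 0 (Fgf5) and 97.1 (Gata6).

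Zinc finger proteins of the C2H2 type bind nucleic acids through short modules in which a pair of cysteines and a pair of histidines hold a zinc ion. Many are built as long tandem arrays, in which fingers are joined by a nearly invariant linker of threonine, glycine, glutamate, lysine and proline, followed by tyrosine or phenylalanine at the start of the next finger. In rodents and primates the largest group also carries a KRAB domain, recruits the corepressor Trim28 and silences retrotransposons and imprinted regions in ESCs. Such genes lie in clusters of recent duplicates, so that their coding sequences repeat both within a gene and between genes. A finger was found in the annotated protein of 125 of the 130 genes, with a median of 10 and at most 37 fingers, and the linker in 93, with at most 18. Among all coding transcripts chosen by the same rule, the linker was found in 204 of 5607 (3.64%), and 77 of these were Zfp transcripts.

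Repeated sequence, also outside the finger arrays, set what could be measured. A position was called found once when the 25 bases from it onward occur once in the mouse genome (mm9, both strands), and repeated when they occur more often. Of the 392568 positions of the Zfp transcripts, 80.1% were found once and 16.8% were repeated. The repeated ones carried 96.2% to 97.3% of the RT stops of the Zfp transcripts in the 6 libraries, against 91.6% to 94.6% over the chosen transcripts of all genes. In 113 of the 130 transcripts they carried over 50% of the stops, and in 12 under 5%. The median share was 92.7% over the 130 transcripts and 85.8% in the 37 of genes without a linker. A stop at a position repeated in another gene cannot be assigned from its sequence to 1 gene, and how such reads were counted is not given in the sources used here, so transcripts that share sequence may not be independent.

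The sequences below show the kinds of site on which the stops fell. The 3 most frequent linker-coding sequences come first, because over all linkers the shares of the stops at single bases differed between DMS and CMCT. The capitals mark bases 10 and 11, in the lysine codon, and base 16, the first base of the tyrosine codon. The first is found 50 times in 18 Zfp transcripts (shown: Zfp960, chr17:17225190-17225207, plus strand), the second 42 times in 10 (Zfp534, chr4:147049012-147049029, minus strand) and the third 22 times in 7 (Zfp808, chr13:62273120-62273137, plus strand), all in coding exons.
linker 1: actggagagAAacccTat
linker 2: acaggagagAAacctTac
linker 3: actggagagAAacccTac

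The next sequences are windows around the position with the most stops in a transcript, with the counted base in capitals. They show a finger array (Zfp820, chr17:21956674-21956703, minus strand, coding), a run of T in a 3′ UTR (Zfp444, chr7:6142786-6142815, plus strand), a CA repeat in a 3′ UTR (Zfp92, chrX:70669887-70669916, plus strand) and a sequence found once (Zfp281, chr1:138524310-138524339, plus strand, coding).
Zfp820: attcaTacaggagagaaaccttacaaatgt
Zfp444: tttttGtttgtttttttgtttttttttttt
Zfp92: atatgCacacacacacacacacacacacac
Zfp281: agacaTagagcctagaacaacgtaccagat

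The first question was where on the linker the stops fell. The exact linker was found 466 times in the translated coding regions of 77 Zfp transcripts, and the 18 bases that code its 6 residues were aligned. They carried 2368 and 1964 stops in the NT replicates, 10145 and 10244 in DMS and 15771 and 14744 in CMCT. After DMS, the lysine codon stood out: its bases 10 and 11, both A in every copy, together took 39.2% and 39.6% of the linker stops of the 2 DMS libraries. In NT they took 6.88% to 8.81% and in CMCT 2.05% to 2.20%. Base 11 alone stood at 27.9% ± 0.11 (SD, n = 2) in DMS, 7.27% ± 1.0 in NT and 0.92% ± 0.03 in CMCT.

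After CMCT, base 16 stood out, the U that opens the codon of the first residue of the next finger. It took 59.8% ± 2.0 (SD, n = 2) of the linker stops in CMCT, 36.5% ± 3.8 in NT and 25.5% ± 0.62 in DMS. In DMS its share thus came close to the 27.9% of base 11. In the Zfp960 copy shown above, base 16 held 31 and 30 DMS stops and base 11 held 25 and 25. The libraries of the groups did not overlap at either site. They did not overlap at most other linker bases either, so this does not single out these sites. Base 7, for example, took 3.13% and 2.90% in NT, 3.67% and 3.59% in DMS and 2.39% and 2.52% in CMCT. With 2 libraries against 2, an exact two-sided permutation test cannot give a p below 0.333, which is the value reached for base 11 in DMS against NT. Base 16 was also the most frequent stop without a reagent. In the lysine codon, bases 10 and 12 were low in NT (0.58% and 0.17%), whereas base 11, with 7.27%, was above most linker bases there.

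**Figure D1:**
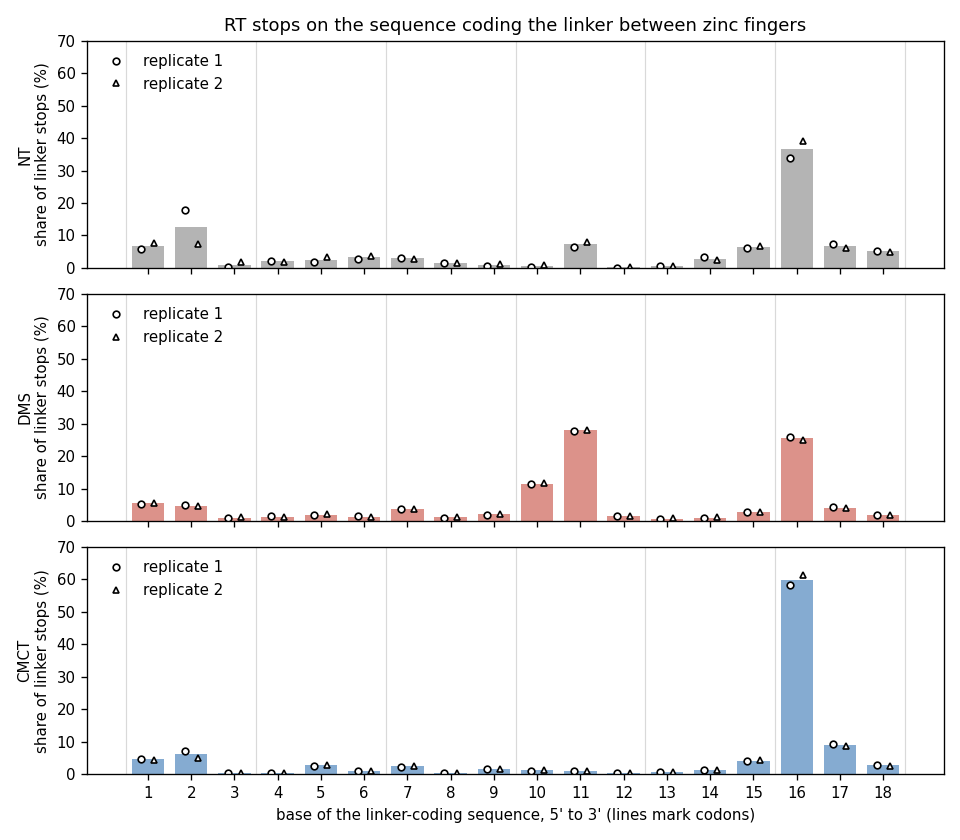
Share of the RT stops on the linker-coding sequence at each of its 18 bases, in % of the linker stops of a library, for NT, DMS and CMCT. Bars are means of 2 replicates and symbols the replicates. DMS stands out at bases 10 and 11 and CMCT at base 16, where NT also has its largest share of 36.5%.

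Copies of the linker share sequence, so the profile was also read at positions found once, where 251 to 1391 stops remained per library. There bases 10 and 11 took 37.5% and 40.1% of the stops in DMS, 4.52% to 4.78% in NT and 2.88% to 2.95% in CMCT. Base 16 took 57.2% and 62.2% in CMCT, 29.8% to 37.1% in NT and 22.9% to 24.7% in DMS. The order of the treatments was the same at these positions. They may not be free of shared counts: the linker stops found once were 1391 and 1250 in the CMCT replicates, although the stops found once over all chosen transcripts were 12288256 and 7063483. Of the 36 transcripts with at least 20 linker stops in each treatment, 35 had a larger share at bases 10 and 11 in DMS than in NT and in CMCT, and 34 had a larger share at base 16 in CMCT than in NT and in DMS. These transcripts share linker sequences and are not replicates.

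The linker was not the most heavily stopped part of the array. In a window with 18 more bases on each side, the first base of the last histidine codon before the linker held the largest share in NT and DMS, and in CMCT both outer bases of the codon held like shares. The first base took 15.8% to 18.3% of the stops of the window in NT, 15.1% to 15.3% in DMS and 21.5% to 22.8% in CMCT. The last base took 12.7% to 13.5%, 8.17% to 8.45% and 21.7% to 22.9%, respectively. In DMS a base further upstream in the finger came second, with 11.6% to 12.1%, beside 11.4% to 12.5% in NT and 6.43% to 6.99% in CMCT. The window of Zfp820 shown above has its most counted base there, in the histidine codon before the linker, with 20 and 16 stops in NT, 64 and 69 in DMS and 283 and 279 for CMCT.

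The second question was which Zfp transcripts carried more or fewer stops after treatment. In edgeR's quasi-likelihood test over all 6 libraries and 12028 symbols (Benjamini-Hochberg adjusted p under 0.05), 59 of the 130 differed between DMS and NT, 39 higher and 20 lower. The background was 22.5% of all symbols, 11.7% higher and 10.8% lower. For CMCT against NT, 53 differed, 35 higher and 18 lower, against a background of 23% of all symbols, 10.8% higher and 12.2% lower. The choice of transcript used the DMS and CMCT counts that are tested here, except in the 63 genes with 1 listed transcript. On the longest transcript of each gene, 56 of the 130 were called for DMS and 52 for CMCT, against 22.7% and 22.2% of all symbols. The median log2 fold change of the 130 was −0.17 for DMS and 0.28 for CMCT, and that of all symbols 0.01 and 0.14. The calls hang on 1 library: without NT replicate 2, edgeR called no symbol at all for either reagent, and 61 and 55 of the 130 had an unadjusted p under 0.05, against 24.4% and 20.3% of all symbols. Without that library the log2 fold change of Zfp950 was 2.74 for DMS and 3.13 for CMCT (edgeR adjusted p = 0.0640 and 0.0712), and that of Zfp444 was −2.10 and −2.08 at the same adjusted p, beside 2.50, 2.89, −2.33 and −2.31 with all libraries. With all libraries DESeq2 called 75 and 68, against 39.5% and 32.4% of all symbols. With positions found once alone, edgeR called 7 of 128 for DMS and none for CMCT, where the background was 1.62% and 0% and 61 had an unadjusted p under 0.05 for CMCT, against 24.4% of all symbols.

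Both comparisons share the NT libraries, so the DMS and CMCT values of a transcript are given side by side and their likeness is not a result.

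The number of linkers in the protein went with the direction. The choice of transcripts did not use the linkers, but it used the DMS and CMCT counts from which the direction was read. Over all symbols, 11.7% were called higher and 10.8% lower after DMS, and 10.8% higher and 12.2% lower after CMCT. Of the 47 genes with 6 or more linkers, 26 were higher and 5 lower after DMS, and 26 higher and 4 lower after CMCT. Their median log2 fold changes were 1.22 and 1.96, and 1.24 and 1.41 at positions found once. Of the 46 genes with 1 to 5 linkers, 12 were higher and 6 lower after DMS, and 8 higher and 6 lower after CMCT, with medians of −0.33 and 0.05. Of the 37 genes without a linker, 1 was higher and 9 lower after DMS, and 1 higher and 8 lower after CMCT. Their medians were −0.47 and −0.09. At positions found once, the medians were −0.25 and 0.21 with 1 to 5 linkers, and −0.27 and 0.17 without a linker. The division at 6 was made after the values had been seen, and the groups were not tested against each other. Values on the longest transcript are not given by linker number. The genes with 6 or more linkers share sequence and had a median of 95.4% of their stops at repeated positions. They are thus not independent units.

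**Figure D2:**
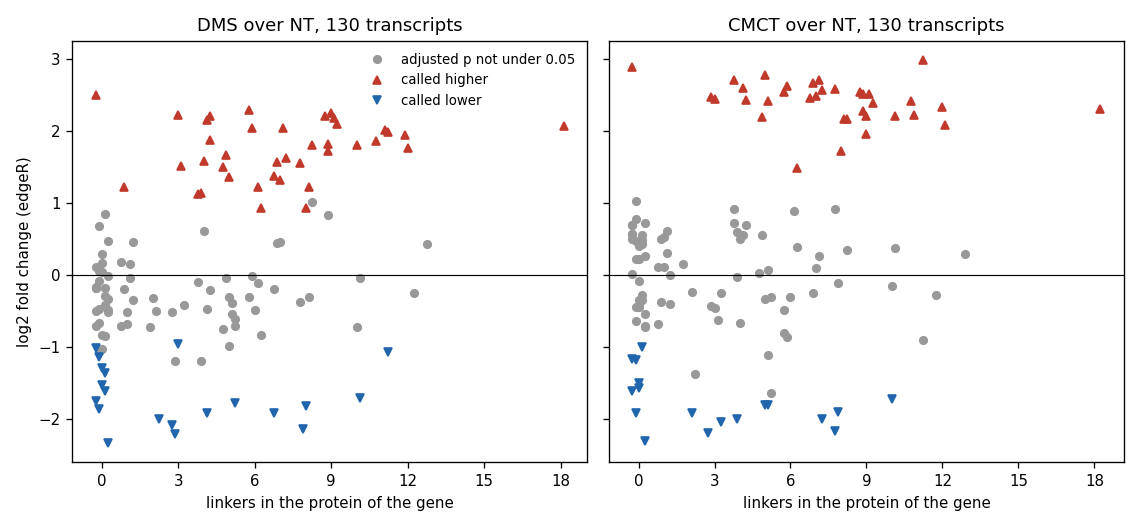
Log2 fold change of RT stops over NT (edgeR) of each of the 130 transcripts against the number of linkers in the protein of its gene, for DMS and CMCT. Colours mark calls at an adjusted p under 0.05. Transcripts called higher lie at 3 linkers or more except Zfp950 and, for DMS, 1 gene with 1 linker, and those without a linker have medians of −0.47 and −0.09.

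The gradient was not particular to the Zfp symbols. The other symbols below were picked for the same linker-coding sequence. Stops at repeated positions may have been counted in them and in Zfp transcripts alike, so they are not an independent set. Of 127 other symbols whose chosen coding transcript holds the linker, 75 were higher and 7 lower after DMS, beside 11.7% and 10.8% of all symbols. After CMCT, 95 of the 127 were higher and 9 lower, beside 10.8% and 12.2% of all symbols. Of the 71 of them with 6 or more linkers, 60 were higher after DMS and 71 after CMCT, and none was lower in either test. Their median log2 fold changes were 1.03 and 1.69. Restricted to positions found once, only 45 of these 71 could be tested, and the medians were 1.11 and 1.61. There edgeR called 7 higher for DMS and none for CMCT, beside 0.965% and 0% of all symbols. For CMCT, 40 had an unadjusted p under 0.05, against the same 24.4% of all symbols.

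The largest rises were in transcripts that carry linker-coding sequence. Zfp950 carried 108 and 110 stops in NT, 838 and 849 in DMS and 1080 and 1059 in CMCT, a log2 fold change of 2.50 ± 0.33 (SE) for DMS (edgeR, adjusted p = 0.00116) and 2.89 ± 0.33 for CMCT (adjusted p = 0.00116). Its annotated reading frame holds no finger, but the window of its most counted position holds the linker-coding sequence, which puts it with the array genes by sequence. Zfp935 carried 112 and 101 stops in NT, 707 and 704 in DMS and 836 and 792 in CMCT, with log2 fold changes of 2.29 ± 0.31 and 2.54 ± 0.32. Both libraries of each reagent lay far above both NT libraries.

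Zfp930 carried 309 and 251 stops in NT, 1782 and 1792 in DMS and 2182 and 2015 in CMCT. Its rise for DMS (log2 2.24 ± 0.29, edgeR adjusted p = 0.00116) also passed at positions found once (1.75 ± 0.26, adjusted p = 0.0485), 1 of 7 Zfp transcripts for which this held, the others being Zfp120, Zfp442, Zfp825, Zfp932, Zfp958 and Zfp959. Zfp825 carried 184 and 167 stops in NT, 1045 and 1064 in DMS and 1270 and 1218 in CMCT. These 7 were picked by that test. Their positions found once also held near-equal replicates, such as 31 and 30 stops in DMS and 72 and 72 in CMCT at the most counted one of Zfp825.

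Zfp40 and Zfp820, both on chromosome 17, were among the largest rises after CMCT. Zfp40 carried 304 and 301 stops in NT, 1664 and 1682 in DMS and 3227 and 3115 in CMCT, with log2 fold changes of 2.02 ± 0.31 and 2.99 ± 0.32. Zfp820 carried 854 and 820 in NT, 3591 and 3623 in DMS and 7712 and 7400 in CMCT, with 1.66 ± 0.33 and 2.77 ± 0.35. Both hold the second linker sequence above, whose 42 copies took 1151 and 952 stops in NT, 3420 and 3410 in DMS and 7316 and 6800 in CMCT. The 50 copies of the first sequence took 193 and 163, 1717 and 1758, and 1590 and 1491. The CMCT value was the larger one also in the median of the 30 transcripts whose most counted window holds the linker-coding core (1.84 for DMS and 2.42 for CMCT), and the difference between the reagents was not tested. Of the 18 Zfp genes on chromosome 17, 14 were higher after DMS and 14 after CMCT, beside 11.7% and 10.8% of all symbols, and 1 was lower after DMS. These genes hold 111 linkers and share sequence.

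The largest drops were in transcripts with a run of T. Zfp444 carried 87996 and 87937 stops in NT, 23968 and 23939 in DMS and 23513 and 23384 in CMCT. Its log2 fold change was −2.33 ± 0.44 (SE) for DMS and −2.31 ± 0.44 for CMCT (edgeR, adjusted p = 0.00391 and 0.00453). Zfp422 carried 65161 and 65279 stops in NT, 19444 and 19300 in DMS and 19548 and 18566 in CMCT (log2 −2.21 and −2.18). Zfp457, an array gene with 8 linkers, carried 39186 and 39186 stops in NT, 12203 and 12203 in DMS and 11536 and 11532 in CMCT (log2 −2.14 and −2.16). Without the positions of equal replicates its log2 fold change turned to 1.06 for DMS (edgeR adjusted p = 0.0787) and 1.31 for CMCT (adjusted p = 0.0381). The most counted base of Zfp457 stood before a run of T in its annotated coding region, with 3872 and 3872 stops in NT, 1073 and 1074 in DMS and 1047 and 1047 in CMCT. In all 3 genes NT lay above both reagents in every library. With only positions found once, the log2 fold change for DMS was 0.13 in Zfp444, −0.34 in Zfp422 and −1.72 in Zfp457, and for CMCT −0.05, 0.28 and −1.87. None passed the test (edgeR, adjusted p = 0.669, 0.410 and 0.0603 for DMS, and 0.887, 0.516 and 0.0721 for CMCT). In Zfp457 the position found once with most stops lay just before the same run of T and read 819 and 819 in NT, so that it was not apart from the run.

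The most counted position of each transcript, chosen on the 6 libraries summed, was grouped by its sequence. In 30 transcripts its window held the linker-coding core (ggagaaaaacc or ggagagaaacc), and of these 28 were higher after DMS and 30 after CMCT, beside 11.7% and 10.8% of all symbols. In 18 it stood before a stretch with at least 80% T, and of these 16 were lower after DMS and 15 after CMCT, beside 10.8% and 12.2% of all symbols. In 14 it stood in a CA repeat, and of these 5 were higher after DMS and none was called for CMCT. The remaining transcripts held a TG repeat (4), other sequence (62) or were not classed (2). Of the 62 with other sequence, 6 were higher and 4 lower after DMS, and 5 higher and 3 lower after CMCT. Since the counts of the same libraries picked these positions, the grouping is a description.

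**Figure D3:**
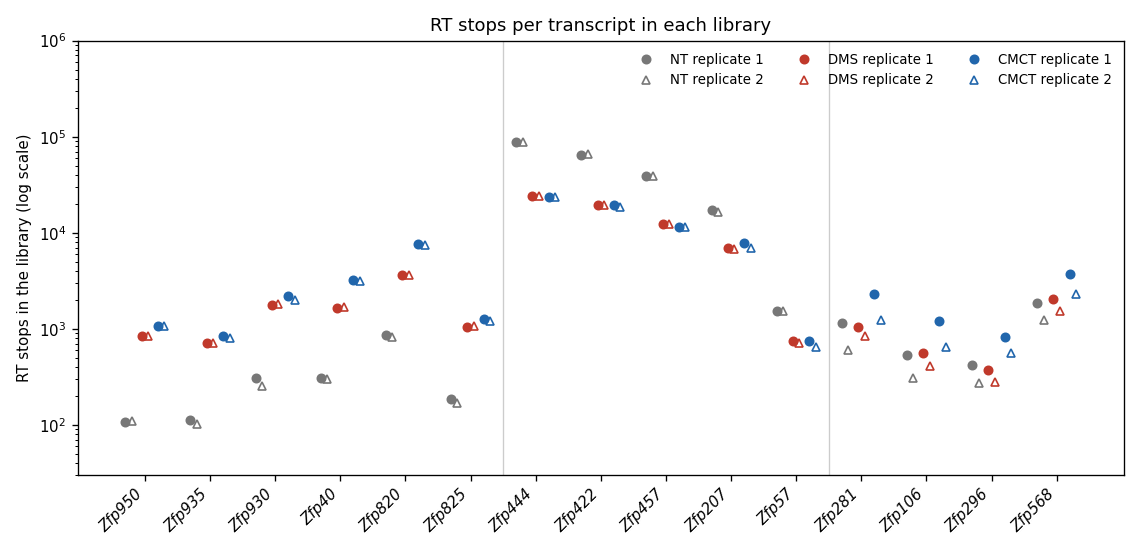
RT stops per library (log scale) of 15 transcripts, with filled circles for replicate 1 and open triangles for replicate 2. From left to right, lines divide finger-array transcripts, in which both reagents lie above NT, transcripts with a run of T, in which NT lies above both reagents, and transcripts with most stops at sequence of their own, in which replicate 1 lies above replicate 2.

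In the CMCT libraries, replicates of the array and T-run transcripts were closer than the depths of the libraries. In Zfp457, Zfp950, Zfp697, Zfp46, Zfp444, Zfp788 and Zfp182, the totals of the 2 replicates lay under 1 Poisson standard deviation apart in all 3 treatments. The CMCT libraries differ 1.86 times in total depth, but the median ratio of CMCT replicate 1 over 2 was 1.08 in the 39 transcripts called higher for DMS. In NT, where the depths differ less, the ratio of these 39 had a median of 1.11. In the 12 transcripts with under 5% of stops at repeated positions, the median ratio was 1.66 in CMCT, 1.75 in NT and 1.31 in DMS. None of these 12 was called for either reagent, beside 22.5% (DMS) and 23% (CMCT) of all symbols. At member positions with at least 50 stops in a treatment, the replicates differed by at most 1 count in 14.6% (NT) to 35.4% (CMCT) of those found once and in 22.4% (NT) to 36.6% (DMS) of the repeated ones. The share that chance would give at such counts is not given here, so these percentages alone do not show shared counts. What made the counts equal was not tested. If counts at these positions are not independent between replicates, the SDs of 2 replicates and the p-values given here, those on the linker included, do not measure the replicate spread and are too small. With equal positions removed, 34 transcripts were called for DMS (31 higher) and 40 for CMCT (36 higher), against 10.7% and 13.6% of all symbols.

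**Figure D4:**
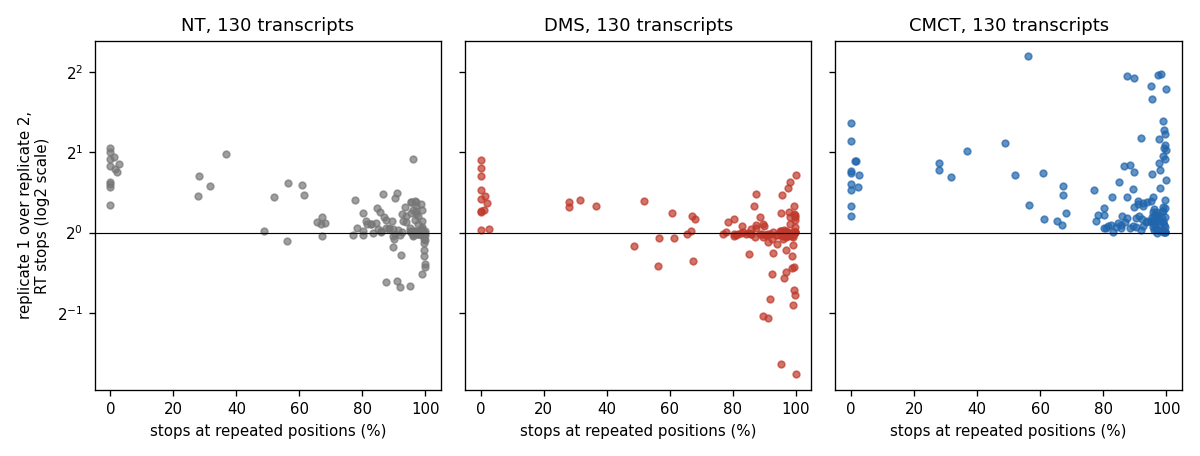
Ratio of RT stops in replicate 1 over replicate 2 (log2 axis) of the 130 transcripts against the share of their stops at repeated positions, in %, for NT, DMS and CMCT. Transcripts with few stops at repeated positions lie above 1 in every treatment, with medians of 1.75, 1.31 and 1.66, and those with over 90% have medians of 1.00, 0.99 and 1.15.

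The same counts also returned in different genes. Of 983 positions with the highest counts, 69, in 20 transcripts, had the same 6 counts, each within 1, in another Zfp transcript. A position of Zfp39 on chromosome 11 read 2472, 3344, 2306, 2128, 3223 and 798 in NT, DMS and CMCT, replicate 1 before 2. Positions of Zfp92 on chromosome X and of Zfp248, Zfp488 and Zfp691 read the same within 1 count. Zfp39 carried 158364 and 160136 stops in NT, 166911 and 133029 in DMS and 269333 and 111286 in CMCT, 99.5% of them at repeated positions, with 152 RNA-seq alignments. Zfp92 carried 112827 and 114712, 154856 and 138829, and 200350 and 106693, with 2 RNA-seq alignments. Neither was called for a reagent.

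Among the transcripts with most stops on their own sequence were genes with known roles in ESCs. Zfp281, a regulator of the pluripotency network, carried 1159 and 605 stops in NT, 1033 and 848 in DMS and 2303 and 1244 in CMCT (log2 −0.30 ± 0.27 and 0.56 ± 0.27, edgeR adjusted p = 0.444 and 0.151). Zfp296, a factor of pluripotent cells, carried 421 and 272, 375 and 281, and 814 and 563 (log2 −0.49 ± 0.28 and 0.57 ± 0.28, adjusted p = 0.219 and 0.160). Neither passed the test.

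Zfp106, an RNA-binding protein, carried 530 and 307 stops in NT, 565 and 414 in DMS and 1205 and 652 in CMCT (log2 −0.18 ± 0.27 and 0.69 ± 0.27, edgeR adjusted p = 0.678 and 0.0880). Zfp568, a KRAB protein that represses a placental promoter of Igf2, carried 1843 and 1231, 2042 and 1542, and 3718 and 2313 (log2 −0.19 ± 0.26 and 0.52 ± 0.26), and did not pass either. Zfp598, a ubiquitin ligase that marks collided ribosomes, carried 796 and 471 in NT, 1025 and 792 in DMS and 1508 and 1015 in CMCT. Zfp462, a chromatin protein, held 58 and 39, 47 and 46, and 205 and 80 on the 363 nucleotides of its chosen transcript, and its most counted base, a U, held 0 and 1, 2 and 0, and 23 and 9.

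Zfp57 and Zfp207 stood with the T-run transcripts. Zfp57, a KRAB protein that keeps imprinted regions methylated, was represented by a retained-intron transcript of 608 nucleotides. It carried 1542 and 1517 stops in NT, 739 and 715 in DMS and 741 and 644 in CMCT (log2 −1.53 ± 0.28 and −1.57 ± 0.28, edgeR adjusted p = 0.00379 and 0.00421). A position before a run of T held 456 and 455 of the NT stops. On the longest transcript of Zfp57 the log2 fold change was −0.54 for DMS and 0.55 for CMCT, neither called. Zfp207, which binds Bub3 and acts in chromosome alignment, carried 17116 and 16401, 6992 and 6693, and 7814 and 6863 (log2 −1.74 ± 0.35 and −1.61 ± 0.35), and at positions found once −0.61 and 0.01, neither called. Of 18 genes listed for a known function, 9 were among the Zfp transcripts, and these 2 were the ones called, beside 22.5% (DMS) and 23% (CMCT) of all symbols, so that the share called was near the background.

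The third question was whether the stops fell on the bases each reagent modifies. At positions found once, U was the base that rose most after CMCT, whereas no base rose beyond the spread of the replicates after DMS. After DMS, stops at A, relative to the depth of the library, were at a log2 of 0.12 ± 0.16 (SD, n = 2) against NT, at C −0.03 ± 0.20, at G −0.29 ± 0.02 and at U −0.39 ± 0.16. A and C together exceeded G and U by 0.39 ± 0.05. The SDs of these base values, here and in the next paragraph, are those of the 2 treated libraries. Each was set against the mean of both NT libraries. The SDs thus leave out the spread of NT, where C held 15863 and 10765 of the stops found once, and are too small for the comparison. After CMCT, U stood at 0.96 ± 0.20, G at 0.23 ± 0.13, C at 0.53 ± 0.08 and A at −0.31 ± 0.12, so that G and U exceeded A and C by 0.49 ± 0.18. The depth used was that of all positions, repeated ones included, so the value of each base also holds any change in the share of stops found once. U made up 35.7% and 39.7% of the stops found once in CMCT and 25.6% in both NT libraries. C made up 29.1% and 28.9% in CMCT and 29.3% and 23.4% in NT, so its share did not clearly rise. G was lower than C after CMCT.

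Over all positions, the DMS preference was 0.91 ± 0.08 and that of CMCT was −0.65 ± 0.09, with the opposite sign. C took 40.7% and 47.2% of all stops in CMCT and 31.6% and 29.3% in NT, and U took 41.0% and 39.4% in NT. The 10 transcripts with most stops held 59.1% of all stops of the 130.

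The place of the stops along the transcripts was described by region. Of the 130 most counted positions, 61 lay in a 3′ UTR, 45 in a coding region, 4 in a 5′ UTR and 20 in an exon of a transcript without a functional coding region. In 79 coding transcripts with at least 100 measurable bases in each region, the median log2 ratio of stops per base in the coding region over the 3′ UTR came to −5.47 ± 0.52 (SD, n = 2) in NT, −3.98 ± 0.49 in DMS and −3.80 ± 0.05 in CMCT. At positions found once, in 75 transcripts, it was 0.08 ± 0.18, 0.59 ± 0.05 and 0.58 ± 0.04. The coding region thus stood below the 3′ UTR by the first measure in every library. By the second it stood above it in the DMS and CMCT libraries, while the NT libraries (0.21 and −0.04) did not differ from 0 beyond their spread. The coding region was higher in 42 and 37 of the 75 transcripts in NT, 48 and 45 in DMS and 44 and 42 in CMCT, so that these counts overlapped between NT and CMCT.

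Within coding regions, the median ratio of finger-coding over other coding bases was above 0 on the log2 scale in every library. A finger was taken from its first cysteine to its last histidine, so the linker counted among the other coding bases. Over all positions, in 94 transcripts, it was 0.68 and 0.76 in NT, 0.58 and 0.73 in DMS and 0.74 and 0.93 in CMCT. At positions found once, in 80 transcripts, the median log2 ratio was 0.28 and 0.36 in NT, 0.41 and 0.41 in DMS and 0.29 and 0.30 for CMCT. The change of this ratio within a transcript had a median of −0.01 ± 0.12 (SD, n = 2) for DMS and 0.02 ± 0.13 for CMCT. The spread of the replicates was larger than these changes. In the 35 transcripts with 6 or more linkers, the median ratio was 0.13 and 0.20 in NT, 0.48 in both DMS libraries and 0.37 and 0.30 in CMCT, but DMS was above NT in 20 of the 35 and CMCT in 21. In the 29 with 1 to 5 linkers it was 0.20 and 0.35 in NT, 0.41 and 0.38 in DMS and 0.17 and 0.40 in CMCT, with DMS above NT in 13 and CMCT in 17. In the 16 without a linker it was 0.65 and 0.95 in NT, 0.12 and 0.19 in DMS and 0.40 and 0.27 in CMCT, with either reagent above NT in 6. The groups were not tested against each other.

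The fourth question was how the stops followed abundance. Over all positions, the rank correlation across the 130 transcripts of stops per base with RNA-seq alignments per kb came to −0.39 (NT), −0.31 (DMS) and −0.24 (CMCT). With positions found once it was 0.34, 0.65 and 0.65. With RNA-seq reads listed once as well it was 0.39, 0.51 and 0.56. All points share the libraries and the RNA-seq sample, and the values are a description across transcripts. In bulk samples, fewer cells that express a gene and less RNA per cell cannot be told apart.

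**Figure D5:**
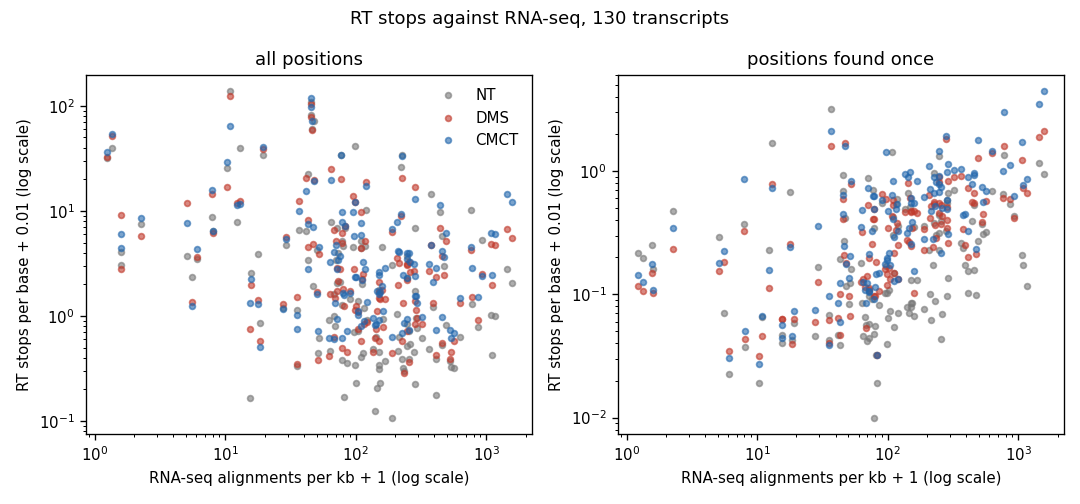
RT stops per base plus 0.01 against RNA-seq alignments per kb plus 1 (both log scales) for the 130 transcripts in NT, DMS and CMCT, over all positions (left) and over positions found once (right). The cloud slopes down on the left (rank correlations of −0.39 to −0.24) and up on the right (0.34 to 0.65).

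The median Zfp transcript had 110 RNA-seq alignments per kb and at positions found once 0.16 stops per base in NT, 0.33 in DMS and 0.44 for CMCT. These stops per base are sums over the 2 replicates of a treatment. The most abundant by RNA-seq were Zfp600 (1560 alignments per kb), Zfp534 (1430), Zfp960 (1156), Zfp936 (1094), Zfp97 (1075), Zfp57 (923), Zfp568 (864), Zfp106 (777), Zfp207 (758) and Zfp330 (625), a nucleolar protein. The first 5 are array genes, and reads listed once left 45.6 alignments per kb in Zfp600, 117 in Zfp534, 111 in Zfp960, 658 in Zfp936 and 109 in Zfp97. In Zfp568, Zfp106 and Zfp57 they left 862, 753 and 914. Zfp936 thus kept the larger part of its level, and the other 4 array genes the smaller part. Over the whole RNA-seq library, 58.5% of the alignments came from reads listed once.

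Zfp600, Zfp534, Zfp106, Zfp825 and Zfp449 had the most stops per base of both reagents at positions found once. Zfp600 carried 2309 and 2070 stops in NT, 5870 and 6077 in DMS and 13783 and 12345 in CMCT, and was called higher for CMCT (log2 2.17 ± 0.36, edgeR adjusted p = 0.00301) but not for DMS (1.01 ± 0.35, adjusted p = 0.0570). Zfp534, with 4463 and 3539, 9555 and 9615, and 22031 and 19141 stops, was also called for CMCT (1.96 ± 0.35) and not for DMS (0.83 ± 0.34). In Zfp449 a single base near a CA repeat in the 3′ UTR held 18.1% of the stops, with 4529 and 4586 in NT, 2269 and 2025 in DMS and 5400 and 677 for CMCT. The 2 CMCT replicates differed there more than the treatments did.

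Zfp960, Zfp97 and Zfp936 rose with both reagents. Their log2 fold changes were 1.81, 1.82 and 1.80 for DMS and 2.20, 2.20 and 2.16 for CMCT (edgeR, adjusted p of 0.00251, 0.00242 and 0.00192, and of 0.00148, 0.00142 and 0.00124). Zfp960 and Zfp97 both lie on chromosome 17 and had nearly the same counts, 901 and 702 against 933 and 708 in NT. Zfp830, a nuclear protein, carried 2924 and 2838 stops in NT, 2581 and 2259 in DMS and 3362 and 1886 in CMCT, with 88.5% of stops at repeated positions, and was not called.

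Partners of KRAB proteins and other zinc finger genes were counted in the same fit. Of 14 cofactors listed (Trim28, Setdb1, Atf7ip, the Cbx proteins, Hdac1, Hdac2 and others), 12 were tested, and for DMS none was higher and 3 were lower, for CMCT 3 were higher and 1 lower. Their median log2 fold changes were −0.40 and 0.45. The 3 and 4 called are 25.0% and 33.3% of the 12, beside 22.5% and 23% of all symbols. Of 40 genes of other zinc finger families (Zbtb, Zscan, Zkscan, Klf and Zc3h symbols), 3 were higher and 9 lower after DMS, and 3 higher and 9 lower after CMCT. The 12 called in each comparison are 30.0% of the 40, beside the same 22.5% and 23% of all symbols. Their median log2 fold changes were −0.49 and −0.16, against 0.01 and 0.14 over all symbols.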

How the data were processed

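CIRS-seq data of 6 libraries (NT, DMS and CMCT, 2 replicates each) and 1 RNA-seq library were used. The authors deposited RT stop counts per transcript position, not normalized, and RNA-seq alignments to mm9 as counts of single lines. Per the labels, the processing notes name Bowtie 1.0.0, TopHat2 2.0.6, bedtools 2.17.0 and FastQC 0.10.1. How reads with several places in the genome were handled is not given in the sources used here.

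Transcript models came from GENCODE vM1 (mm9). Stops were summed over the chosen transcript of each symbol and tested in edgeR 4.0.16 (R 4.3.3, TMM, filterByExpr, quasi-likelihood test over 6 libraries, Benjamini-Hochberg adjustment at 0.05), with DESeq2 1.42.0 as an alternative, and the fit was tested on simulated data. Fingers were searched as cysteines 2 to 4 and histidines 3 to 5 residues apart with 12 residues between the pairs. A pattern for KRAB domains could not be made to work, so no KRAB result is given. RNA-seq alignments (31857551, of which 58.5% had read names listed once) were assigned by midpoint. The software was Python 3.11.15 with scipy 1.17.1, numba 0.67.0, pandas 2.3.3, numpy 2.4.6 and matplotlib 3.10.9.

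Transcripts named are the 10 with most RNA-seq alignments per kb, the 5 with most reagent stops per base at positions found once, the 3 largest rises and drops per comparison, and those of the function lists. Zfp39, Zfp92 and others named for their repeats were chosen after their values were seen. The members and lists were chosen with earlier results of these data known. Alternatives were DESeq2, its size factors, no filter, a replicate block, the longest transcript, positions found once, positions without equal replicates, other scalings, shifts by 1 base and each replicate left out. The study calls the replicates biological. The p-values measure the spread between these samples only if their counts are independent, which the near-equal replicate counts put in doubt. The last 25 bases of a transcript could not be measured.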

Additional observations from a re-analysis of the deposited data

How the results depend on the processing

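Which stops were used and which libraries were kept both changed the results. Of 130 transcripts called for DMS (59) and CMCT (53), 7 of 128 and 0 of 128 were called at positions found once (73 and 61 with an unadjusted p under 0.05 in edgeR, against 28.2% and 24.4% of all symbols), and 34 for DMS without positions of equal replicates. Leaving out 1 library gave 0 to 61 calls for DMS and 0 to 56 for CMCT, with 0 in both cases without NT replicate 2. For the fits without 1 library that called any transcript, the share of all symbols called is not given. Whether those calls exceed their background was therefore not tested. The DMS base preference was 0.39 at positions found once and 0.75 with counts moved 1 base upstream. That of CMCT was −0.56 with counts moved upstream and −0.79 downstream, and it turned to 0.49 at positions found once and, in an alternative added later, to 0.20 as the median over transcripts at such positions. The coding over 3′ UTR ratio turned to 0.084 (NT), 0.59 (DMS) and 0.58 (CMCT) at positions found once, and was −3.60 in CMCT without the most counted position. The rank correlation with RNA-seq turned to 0.34, 0.65 and 0.65 at positions found once and, in an alternative added after the values were seen, to 0.39, 0.51 and 0.56 with read names listed once. Pearson's r with pseudocounts of 1 and 0.1 was −0.38 and −0.37 in DMS and −0.32 and −0.31 in CMCT, and the rank correlation with at least 10 alignments was −0.20 in CMCT. The share of base 11 in DMS was 22.1% as a mean within linkers and 26.1% at positions found once, and that of base 16 in CMCT 53.99% within linkers.

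Among the named transcripts, the log2 fold change turned sign in several, of which these are examples. For DMS it turned in Zfp444 (0.13 at positions found once and also without equal positions) and Zfp457 (1.06 without equal positions). For CMCT it turned in Zfp57 (0.55 on the longest transcript), Zfp207 (0.0091 at positions found once, 0.16 without equal positions), Zfp422 (0.28 at positions found once) and Zfp457 (1.31 without equal positions, edgeR adjusted p = 0.0381). Transcripts not called turned too. At positions found once, Zfp830 went from −0.70 to 0.47 for DMS and from −0.64 to 0.35 for CMCT. Zfp449 went from 0.45 to −1.60 for DMS and from 0.11 to −1.51 for CMCT, and Zfp598 from 0.12 to −0.025 for DMS. In Zfp568 and Zfp106, not called for DMS, the DMS value was 0.027 and 0.042 when scaled by positions found once, an alternative added later. In Zfp106 it ran from −0.35 without NT replicate 2 to 0.018 without NT replicate 1, with 0.0031 without DMS replicate 2. The cause was not tested.

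With the replicate block, 75 transcripts were called for DMS and 67 for CMCT, against 39.1% and 34.8% of all symbols. Same-numbered libraries had deviations that correlated at 0.59 for NT with DMS, but at −0.07 for NT with CMCT and −0.10 for CMCT with DMS. The numbers thus went together for NT with DMS and not for CMCT. The main fit had no block and left this out of the DMS comparison. At positions found once a median transcript had 0.16 NT stops per base, and whether this depth bears on the number of calls was not tested.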
